A study of Mus musculus with 6 samples.

Results

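Interferon-stimulated genes are switched on when a cell senses interferon, and 37 of them, taken from a list of gene names, were followed here through 3 fat depots of mice with and without Kdm4b. Of the 37, 35 had an Affymetrix probe set annotated to that gene alone, among 18194 genes with such a probe set. The probe set of Isg15 carries the symbol of another gene too, so it was not used, and the level of Ifi44 was not analysed here. The listed genes were divided by the interferon they are best known to answer, 28 as type I genes and 9 as interferon gamma type genes, although many respond to both.

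The tissues came from male mice, 2 months old, kept at room temperature on chow and fasted for 6 hours before sampling. Knockout (KO) mice lacked Kdm4b, which encodes a histone H3 demethylase, in the whole body, and wild-type (WT) mice were the controls. Brown fat, subcutaneous fat and epididymal fat were each represented by 1 KO and 1 WT array, 6 arrays in all. Total RNA was the extracted molecule and biotin the label. How many mice stand behind an array, and whether the depots of a genotype came from the same mice, is not stated in the labels. The study asked which transcripts differ in a knockout that becomes obese.

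Type I interferons bind a receptor made of Ifnar1 and Ifnar2, whose kinases Tyk2 and Jak1 phosphorylate Stat2. Stat2 and Irf9 belong to a complex that binds a DNA element called the interferon-stimulated response element (ISRE). Interferon gamma binds a receptor made of Ifngr1 and Ifngr2, and its signal acts through gamma-activated sites (GAS). The products of the induced genes sense viral RNA, degrade or block it, attack the vacuoles of intracellular pathogens, and cut and transport peptides for antigen presentation.

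Promoters are shown first because the ISRE is the element through which many of these genes are induced. In RefSeq's table of start sites (GRCm38.p6, 250 bases before to 50 after each start), 26 of the 37 genes had an entry, Isg15 and Ifi44 among them. The ISRE core, searched as GAAA, any 2 bases and GAAA on either strand, lay in the windows of 14 of these 26 genes, and 46.7% of the 30 windows of these genes held it, against 3.44% of all 32851 windows. It was in 10 of 18 type I genes and in 4 of 8 interferon gamma type genes. The GAS core, TTCNNNGAA, which reads the same on both strands, was in 7 of the 26 genes (5 type I and 2 interferon gamma type). By window, 23.3% of the 30 windows of these genes held it, against 8.3% of all windows. Oas1a, Bst2 and Igtp held both, and in Bst2 the 2 motifs overlapped. Stretches of 60 bases around the ISRE cores are given in the direction of transcription with the cores in capitals, for 5 type I genes, Isg15 among them, and 3 interferon gamma type genes. They lie at chr19:34640769-34640828 (plus strand) for Ifit1, chr19:34583365-34583424 (plus) for Ifit3, chr12:26456538-26456597 (minus) for Rsad2 and chr5:120907508-120907567 (minus) for Oas1a. Those of the others lie at chr11:48871413-48871472 (minus) for Irgm1, chr11:58199497-58199556 (plus) for Igtp, chr3:142620579-142620638 (plus) for Gbp2 and chr4:156200856-156200915 (minus) for Isg15.
Ifit1: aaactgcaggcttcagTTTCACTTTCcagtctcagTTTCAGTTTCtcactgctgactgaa
Ifit3: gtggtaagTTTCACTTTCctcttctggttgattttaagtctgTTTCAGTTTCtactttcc
Rsad2: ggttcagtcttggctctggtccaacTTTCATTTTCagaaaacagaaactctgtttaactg
Oas1a: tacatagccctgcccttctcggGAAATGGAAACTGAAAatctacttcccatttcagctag
Irgm1: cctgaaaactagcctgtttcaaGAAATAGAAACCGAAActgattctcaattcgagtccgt
Igtp: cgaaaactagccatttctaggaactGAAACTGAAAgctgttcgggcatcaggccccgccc
Gbp2: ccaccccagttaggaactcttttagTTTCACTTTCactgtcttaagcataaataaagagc
Isg15: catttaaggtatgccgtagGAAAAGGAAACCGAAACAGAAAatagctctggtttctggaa
The first core base was 104 and 85 bases before the start in Ifit1, 156 and 122 in Ifit3, 120 in Rsad2, 59 in Gbp2 and 34 in Igtp. In Oas1a, Irgm1 and Isg15 several cores run into each other, so that 1 stretch of repeated GAAA carries 2, 2 and 3 matches. Neither motif was found in the windows of Oasl2, Oasl1, Ifi44, Ifi47, Xaf1, Cmpk2, Tap1 and Psmb9. Tap1 and Psmb9 are transcribed away from each other, and their windows share 275 bases on chromosome 17. A match is a string of letters and not a shown binding site.

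Signals are MAS5 values, scaled so that every array has the same trimmed mean. A signal floor of 63.2, the 40th percentile of the probe sets, was set under weak values, and 12639 to 13594 genes lay above it on an array. Kdm4b, the check of the labels, had signals of 95.2 in KO and 135 in WT brown fat, 157 in KO and 272 in WT subcutaneous fat, and 188 in KO and 227 in WT epididymal fat, lower in the KO array of each depot and above the floor on all 6 arrays. It has 1 probe set, whose place relative to the deleted part is not given. In the limma fit described below, its KO minus WT difference was -0.52 ± 0.15 (SE, adjusted p = 0.522) and not called. Of all genes measured in the 3 depots, 17.2% were lower in KO in each of them, so this direction alone does not settle the labels. Zic1, a brown adipocyte gene, was above the floor in brown fat alone (960 in KO and 876 in WT), and the mesothelial gene Upk3b was at 4651 in KO and 4839 in WT epididymal fat and at most 110.2 elsewhere. The summed signal of 7 adipocyte markers was between 117844 and 142645 on each array. That of 10 skeletal muscle markers was 764 in KO and 19100.5 in WT brown fat, 67518 in KO and 57166 in WT subcutaneous fat, and 2239 in KO and 5482 in WT epididymal fat, and its part in the results was not tested.

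Interferon-stimulated genes were lowest in brown fat and highest in subcutaneous fat. The median signal of the 34 genes that could be tested (those exceeding the floor on 3 or more arrays) was 379 in KO and 439 in WT brown fat, 975 in KO and 1153 in WT subcutaneous fat, and 610 in KO and 650 in WT epididymal fat. Of these 34 genes, 33 had their highest mean in subcutaneous fat, against 32.8% of the 13233 genes tested, and 27 their lowest in brown fat, against 47.8%. The exception at the top was Isg20, highest in epididymal fat. The order subcutaneous, epididymal, brown held for 26 of 34 genes, and for 24.6% of all genes.

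A limma fit to all arrays, modelling depot plus genotype, gave the tests of the depots. Differences printed with ± are log2 differences and standard errors of this fit, adjusted by Benjamini-Hochberg over all genes tested. Both arrays of a depot then count as replicates of it, though they differ in genotype, so the p-values measure the spread between these arrays and not between mice. In brown fat 26 of 34 interferon-stimulated genes were lower than the mean of the white depots and 0 were higher (adjusted p under 0.05), where 31.1% of all genes were called lower and 21.6% higher. The median difference of the 34 genes was -1.07 on the log2 scale. The call covered 17 of 25 type I genes and 9 of 9 interferon gamma type genes. The genes not called were Ddx58, Dhx58, Oas2, Oas3, Ifi27l2a, Bst2, Rsad2 and Cmpk2. Rsad2 and its neighbour Cmpk2 were the 2 genes with a positive difference, 0.26 and 0.20. Both arrays of epididymal fat were above both arrays of brown fat for 23 of 34 genes (40.7% of all genes), and both of subcutaneous fat for 31 (43.2%).

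Between the white depots, 9 of 34 genes were higher in subcutaneous than in epididymal fat and 0 were lower, where 3.88% of all genes were called higher and 1.16% lower. These were Mx1, Usp18, Ifi47, Psmb9, Psmb8, Tap1, Oas1a, Ddx58 and Irgm1, that is 4 of 25 type I genes and 5 of 9 interferon gamma type genes. The median difference of the 34 genes was 0.74, and 27 of 34 had both subcutaneous arrays above both epididymal arrays (26.4% of all genes). This count was fragile: it was 0 without the KO epididymal array, 0 without the WT epididymal array and 4 without the WT subcutaneous array. It was also 0 with the floor at the 20th percentile and 16 with it at the 60th. Of these 9 genes, the 8 with the largest difference each lost the call in some alternatives, from 4 for Usp18 and Ifi47 to 9 for Oas1a.

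**Figure D1:**
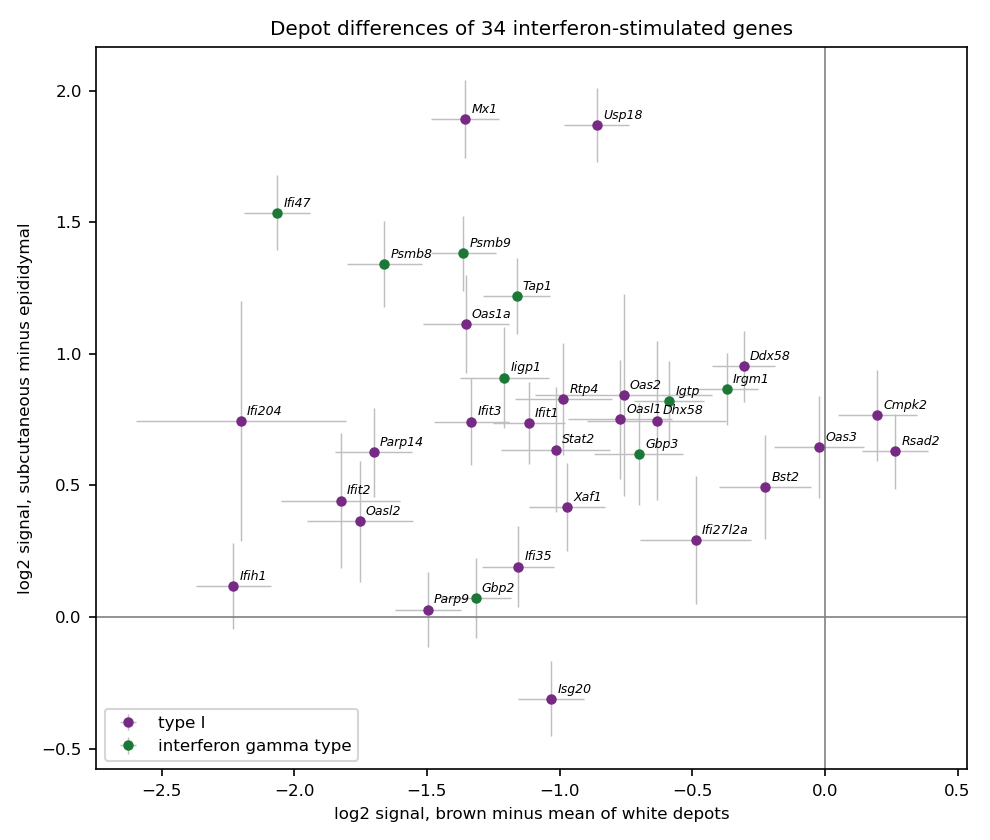
Each point is 1 of the 34 tested genes, with its log2 difference of brown fat minus the mean of the white depots (x axis) and of subcutaneous minus epididymal fat (y axis). Bars are standard errors from the limma fit, purple marks type I and green interferon gamma type genes. Of the points, 32 lie left of the zero line and 33 above it, and Mx1, Usp18 and Ifi47 lie highest.

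Immune cell markers also differed by depot. The summed signal of 10 macrophage markers was 6956 in KO and 9324 in WT brown fat, 33676 in KO and 43894 in WT subcutaneous fat, and 39235 in KO and 35932 in WT epididymal fat. T cell markers (9 measured of 10) summed to 518 in KO and 426 in WT brown fat, 6267 in KO and 7844 in WT subcutaneous fat, and 604 in KO and 738 in WT epididymal fat. B cell markers (7 measured of 8) summed to 464 in KO and 588 in WT brown fat, 11565 in KO and 12119 in WT subcutaneous fat, and 929 in KO and 1119 in WT epididymal fat. Macrophage markers were thus several times lower in brown than in either white depot, and lymphocyte markers were far higher in subcutaneous fat than in the other depots. The T cell genes Cd3e and Cd3g were under the floor on both brown arrays. The part of these cells in the depot differences was not tested, and in whole tissue fewer cells of a type and less RNA per cell cannot be told apart.

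KO arrays had lower signals of most interferon-stimulated genes in brown and subcutaneous fat, by small amounts, and no clear lean in epididymal fat. In brown fat 28 of 34 measured genes were lower in KO (53.6% of all genes) and 6 higher (46.4%). In subcutaneous fat the counts were 28 of 34 lower (45.3% of all genes) and 6 higher (54.7%). In epididymal fat 19 of 33 were lower (53.3% of all genes) and 14 higher (46.7%). These are directions of any size between 2 arrays, with no test within a depot.

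The median KO minus WT log2 difference of the genes was -0.29 in brown fat, -0.27 in subcutaneous fat and -0.08 in epididymal fat, beside medians of -0.03, 0.04 and -0.02 over all genes. Set against the median of all genes, the differences were -0.26 in brown, -0.31 in subcutaneous and -0.06 in epididymal fat. Centring each array on its median moved the median of all genes to 0.11 in brown, -0.12 in subcutaneous and 0.11 in epididymal fat. The differences from it were then -0.26, -0.31 and -0.05, while the epididymal median itself turned to 0.05 and 14 of 33 genes were lower there.

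**Figure D2:**
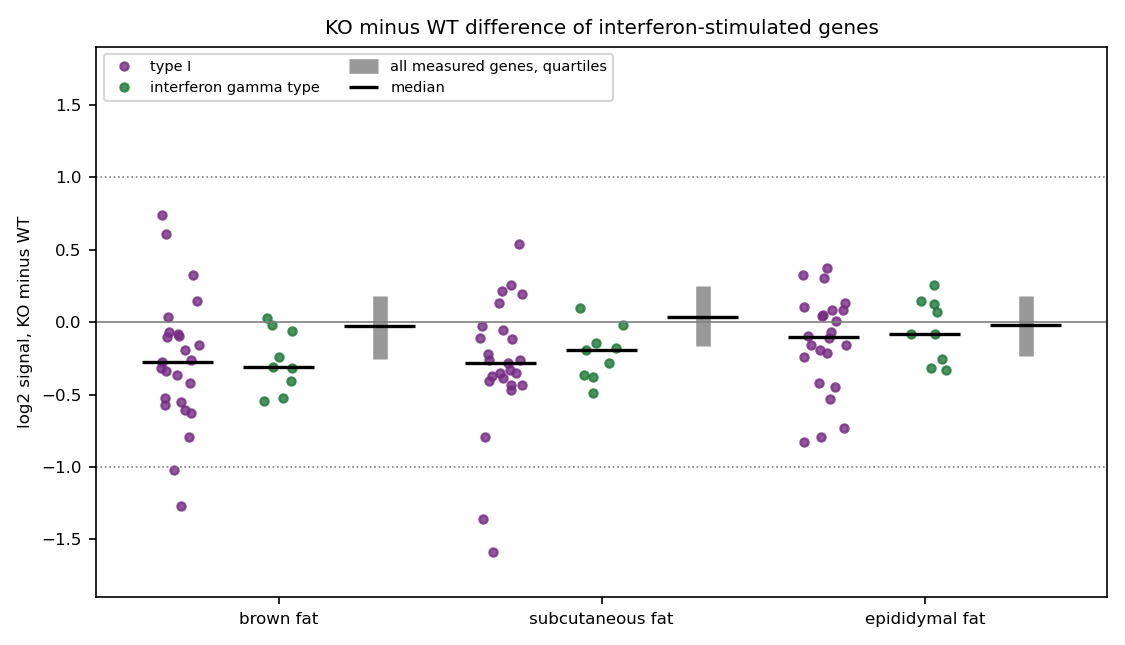
The y axis is the KO minus WT log2 difference in each depot, purple points are type I genes, green points interferon gamma type genes, black lines medians, and grey bars the quartiles of all measured genes. Dotted lines mark a 2-fold difference. In brown and subcutaneous fat the medians of both classes lie between -0.31 and -0.20, and Ifi204 and Ifi27l2a in brown fat and Ifi204 and Oasl2 in subcutaneous fat lie past 2-fold.

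Few genes differed by 2-fold or more. In brown fat 2 of 34 were at least 2-fold lower in KO (2.43% of all genes) and 0 higher (1.1%). In subcutaneous fat 2 of 34 were lower (0.722% of all genes) and 0 higher (2.2%), and in epididymal fat 0 of 33 were lower (1.41%) and 0 higher (0.87%). The genes were Ifi27l2a and Ifi204 in brown fat, and Ifi204 and Oasl2 in subcutaneous fat. As a scale for the difference of a single gene, probe sets of the same gene differed with an SD of 0.32 in brown, 0.32 in subcutaneous and 0.31 in epididymal fat (log2).

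Across the depots 14 of the 33 genes measured in all 3 were lower in KO each time, against 17.2% of all genes, and 0 were higher each time, against 16.2%. They were Ifih1, Ddx58, Ifit1, Oasl2, Isg20, Ifi27l2a, Rsad2, Mx1, Usp18, Parp14, Ifi47, Irgm1, Igtp and Tap1. The smallest of these log2 differences was -0.02, for Isg20 and for Igtp in subcutaneous fat. Under median centring 11 of the 33 genes were lower in KO each time, and the share of all genes was not computed for that scaling.

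With the 3 depots standing in for replicates of the genotype difference, the limma test called 0 of 34 interferon-stimulated genes and 0 of all 13233 genes (0%). At an unadjusted p under 0.05, 6 of 34 were lower and 0 higher, where 4.54% of all genes were lower and 3.79% higher. These 6, named after their values were seen, were Oasl2, Ifit1, Ifi27l2a, Ifi47, Usp18 and Rsad2. The lowest adjusted p among the 34 genes was 0.46.

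**Figure D3:**
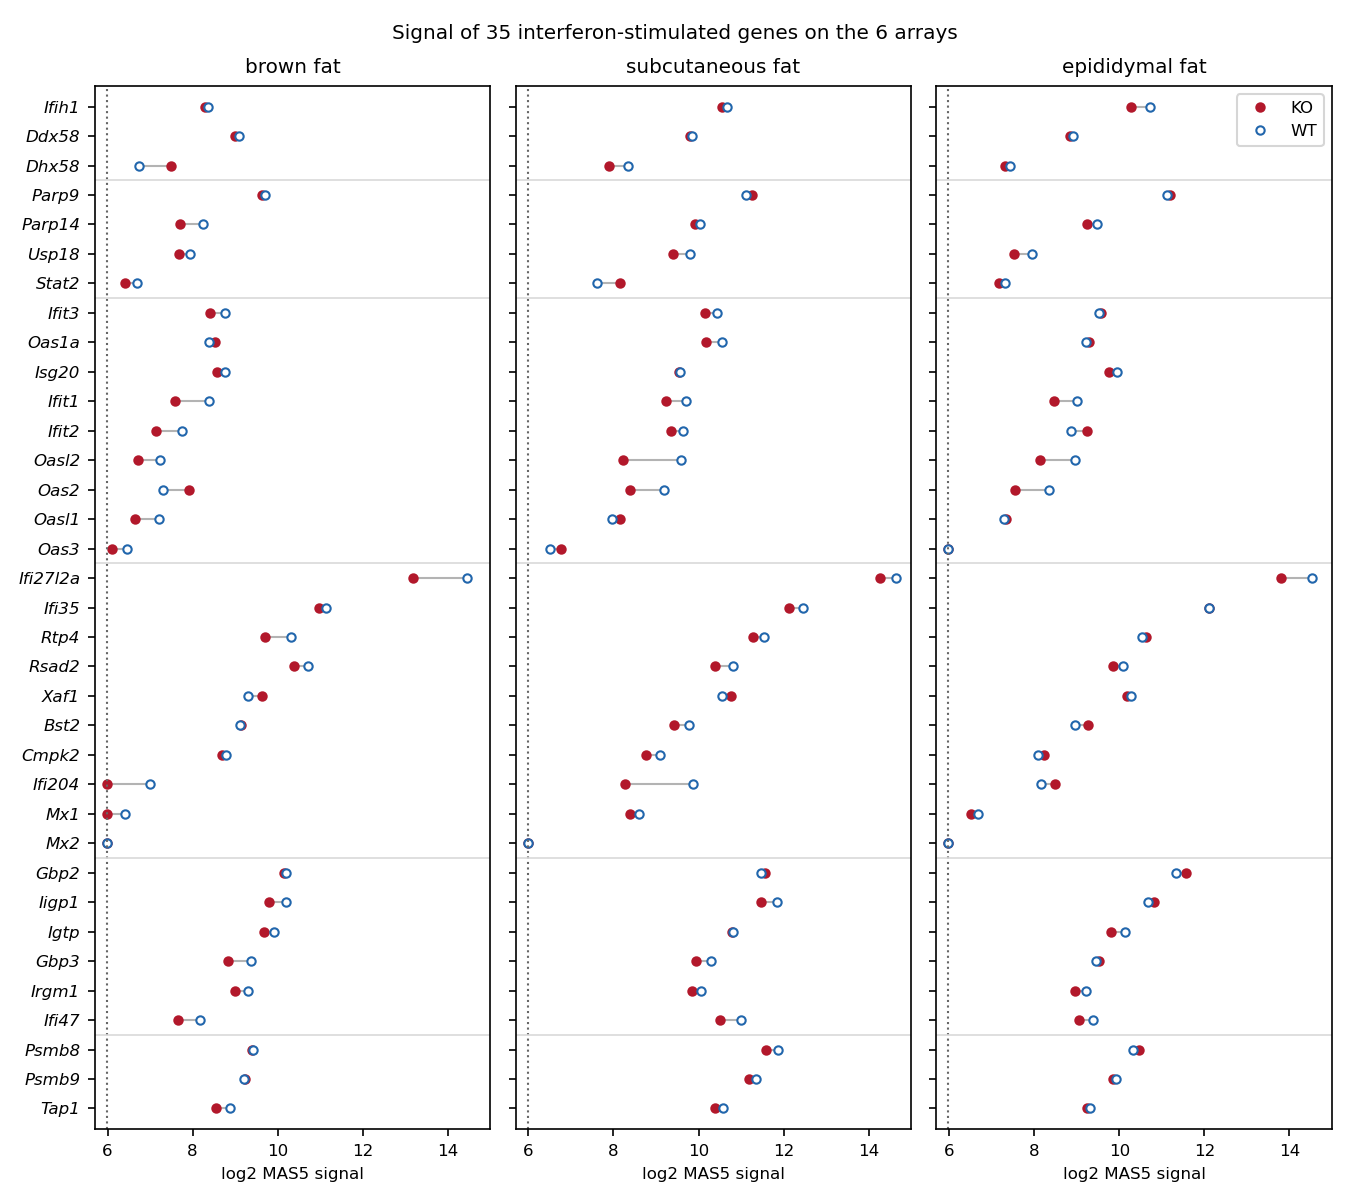
Log2 MAS5 signal of the 35 genes with a usable probe set (x axis) in brown, subcutaneous and epididymal fat, 1 array per point, with filled red points for KO and open blue points for WT. Genes run down the page by role, from RNA sensors to antigen processing, and the dotted line is the signal floor. Red points lie left of blue ones for 28 genes in each of the first 2 panels and for 19 in the third.

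The cytoplasmic RNA sensors are the helicases Ifih1 (MDA5), Ddx58 (RIG-I) and Dhx58 (LGP2). Ifih1 had signals of 311 in KO and 329.5 in WT brown fat, 1508 in KO and 1622 in WT subcutaneous fat, and 1234 in KO and 1681 in WT epididymal fat. Brown fat was low on both arrays with no overlap with the white depots, and brown minus white was -2.23 ± 0.14 (SE, adjusted p = 0.000506). Ddx58 had signals of 508 in KO and 543 in WT brown fat, 887 in KO and 920.5 in WT subcutaneous fat, and 456 in KO and 477 in WT epididymal fat. Its subcutaneous arrays were above all others, 0.95 ± 0.14 (SE, adjusted p = 0.0272) over epididymal fat, and its KO minus WT log2 differences were small, between -0.10 and -0.05. A dimmer probe set of Ddx58 had larger ones, -0.32 in brown, -0.27 in subcutaneous and -0.18 in epididymal fat. Another, weak probe set was higher in KO subcutaneous fat (0.55, with the WT array under the floor). Dhx58 had KO minus WT log2 differences of 0.74 in brown, -0.44 in subcutaneous and -0.11 in epididymal fat. A weak second probe set went the other way in each depot, at -0.52 in brown, 0.40 in subcutaneous and 0.27 in epididymal fat.

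The RNA-binding and RNA-degrading effectors are the Ifit proteins, which bind foreign RNA ends, the Oas family, which makes the second messenger of RNase L or binds RNA, and the exonuclease Isg20. In this group 7 of 9 were lower in KO brown fat (53.6% of all genes), 7 of 9 in KO subcutaneous fat (45.3%) and 4 of 8 in KO epididymal fat (53.3%). In brown against white fat 7 of 9 were called lower (31.1% of all genes). Oasl2, an Oas-like protein, had signals of 105 in KO and 150.5 in WT brown fat, 300.3 in KO and 768 in WT subcutaneous fat, and 280 in KO and 498 in WT epididymal fat. Its KO array was the lower one in each depot, 2.56-fold in subcutaneous fat, and the subcutaneous WT array stood highest. The KO minus WT difference was -0.90 ± 0.19 (SE, adjusted p = 0.46), and brown minus white was -1.75 ± 0.20 (SE, adjusted p = 0.00188).

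Ifit1 had signals of 192 in KO and 333 in WT brown fat, 603 in KO and 832 in WT subcutaneous fat, and 353 in KO and 511 in WT epididymal fat, lower in KO each time with a difference of -0.60 ± 0.13 (SE, adjusted p = 0.46). Ifit2 had signals of 142 in KO and 215 in WT brown fat, 659 in KO and 791 in WT subcutaneous fat, and 604 in KO and 467 in WT epididymal fat. Its KO array was the lower one in brown and subcutaneous fat and the higher one in epididymal fat, and brown minus white was -1.83 ± 0.22 (SE, adjusted p = 0.00236). Oas1a had signals of 369 in KO and 333 in WT brown fat, 1153 in KO and 1507 in WT subcutaneous fat, and 627 in KO and 592 in WT epididymal fat. Subcutaneous fat was highest on both arrays, 1.11 ± 0.19 (SE, adjusted p = 0.0412) over epididymal fat, and KO was lower there alone.

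The remaining members were Ifit3, Isg20, Oasl1, Oas2 and Oas3, with signals between 11.7 and 1378. Oas2 had KO minus WT log2 differences of 0.61 in brown, -0.79 in subcutaneous and -0.79 in epididymal fat, so its brown arrays went against the white ones. Oas3 was under the floor on both epididymal arrays, so no difference was taken there.

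The other antiviral effectors held 3 of the 4 differences past 2-fold. Of 9 measured in each depot, 7 were lower in KO brown fat (53.6% of all genes), 8 in KO subcutaneous fat (45.3%) and 4 in KO epididymal fat (53.3%). The medians were -0.32, -0.35 and 0.01. Ifi27l2a, a small interferon-induced membrane protein gene related to human IFI27, had signals of 9324 in KO and 22501 in WT brown fat, 19752 in KO and 25545 in WT subcutaneous fat, and 14232 in KO and 23647 in WT epididymal fat. The KO array was lower in each depot, 2.41-fold in brown, 1.29-fold in subcutaneous and 1.66-fold in epididymal fat, and the lowest of the 6 arrays was that of KO brown fat. The 3 WT arrays lay close together, and all 3 KO arrays were below all 3 WT arrays. The limma difference was -0.79 ± 0.20 (SE, adjusted p = 0.51).

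Ifi204, which encodes a DNA-binding protein of the p200 family, had signals of 58.8 in KO and 128 in WT brown fat, 309 in KO and 928 in WT subcutaneous fat, and 358 in KO and 286 in WT epididymal fat. The KO brown array was under the floor and entered the fit at the floor, so KO was lower by at least 2.03-fold in brown fat, and it was 3.01-fold lower in subcutaneous fat. In epididymal fat the KO array was the higher one, 1.25-fold. Brown minus white was -2.20 ± 0.40 (SE, adjusted p = 0.00811), a call that was lost without the KO brown array (adjusted p = 0.063) and without the filter on low genes (adjusted p = 0.102). With the floor at the 60th percentile brown minus white was -1.27, and the KO minus WT difference in brown fat was 0. Ifi204 has 1 usable probe set and belongs to a family of similar neighbouring genes, whose transcripts such a probe set may not tell apart.

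Rsad2 (viperin) had signals of 1342 in KO and 1674 in WT brown fat, 1336 in KO and 1805 in WT subcutaneous fat, and 923 in KO and 1090 in WT epididymal fat. It was lower in KO in each depot, -0.33 ± 0.12 (SE, adjusted p = 0.591), and its brown arrays overlapped the subcutaneous ones. Of its other 2 probe sets, 1 was lower in KO in each depot and 1 was higher in KO epididymal fat (0.18). Mx1, a dynamin-like antiviral GTPase, had signals of 25.1 in KO and 84.7 in WT brown fat, 334 in KO and 389.7 in WT subcutaneous fat, and 92.0 in KO and 103 in WT epididymal fat. The 2 subcutaneous arrays were far above the other 4, 1.89 ± 0.15 (SE, adjusted p = 0.00591) over epididymal fat, and the KO brown array, under the floor, entered the fit at the floor. Mx2 was under the floor on all 6 arrays, with signals of 10.6 to 58.2, and was not tested.

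Ifi35, a leucine zipper protein that pairs with Nmi, had signals of 1999 in KO and 2232 in WT brown fat, 4484 in KO and 5648 in WT subcutaneous fat, and 4416 in KO and 4399 in WT epididymal fat. Rtp4, a receptor transporter protein, had signals of 829.9 in KO and 1282 in WT brown fat, 2485 in KO and 2984 in WT subcutaneous fat, and 1591 in KO and 1478 in WT epididymal fat. Both were lower in brown than in white fat, with brown minus white at -1.16 ± 0.13 (SE, adjusted p = 0.00198) for Ifi35 and -0.99 ± 0.18 (SE, adjusted p = 0.00904) for Rtp4. For both the KO array was lower in brown and subcutaneous fat and no lower in epididymal fat. Other probe sets disagreed in part: 1 of Ifi35 was higher in KO subcutaneous fat (0.36), both others of Ifi35 were higher in KO epididymal fat (0.49 and 0.44), and the weak other 1 of Rtp4 was lower in KO epididymal fat (-0.56). Bst2 (tetherin), Cmpk2, a mitochondrial nucleotide kinase, and Xaf1, a partner of the apoptosis inhibitor XIAP, had signals between 274 and 1733. Xaf1 was higher in KO in brown fat (0.32) and subcutaneous fat (0.22), but its other probe set had KO minus WT at -0.68 in brown and 0.54 in subcutaneous fat.

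Signal transduction and the ISG15 system were represented by Stat2, Usp18, Parp9 and Parp14. All 4 were called lower in brown than in white fat, where 31.1% of all genes were. Stat2, a signal transducer of the type I receptor, had signals of 85.0 in KO and 103 in WT brown fat, 284 in KO and 195 in WT subcutaneous fat, and 144 in KO and 159.9 in WT epididymal fat. KO was higher in subcutaneous fat by 0.54 and lower in the other depots, and brown minus white was -1.01 ± 0.21 (SE, adjusted p = 0.012). Usp18, which removes ISG15 from proteins and dampens the type I receptor, had signals of 204 in KO and 244 in WT brown fat, 672 in KO and 889.8 in WT subcutaneous fat, and 183 in KO and 245 in WT epididymal fat. KO was lower in each depot, -0.36 ± 0.12 (SE, adjusted p = 0.573), and subcutaneous fat stood above epididymal fat by 1.87 ± 0.14 (SE, adjusted p = 0.00572).

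Parp9 and Parp14 belong to the ADP-ribosyltransferase family and lie near each other on chromosome 16. Parp9 had signals of 797 in KO and 833 in WT brown fat, 2428 in KO and 2220 in WT subcutaneous fat, and 2343 in KO and 2212 in WT epididymal fat, with KO minus WT between -0.06 and 0.13 on the log2 scale and brown minus white at -1.50 ± 0.12 (SE, adjusted p = 0.00078). Parp14 had signals of 207 in KO and 304 in WT brown fat, 971 in KO and 1055 in WT subcutaneous fat, and 609 in KO and 706 in WT epididymal fat, with KO lower in each depot and brown minus white at -1.70 ± 0.15 (SE, adjusted p = 0.000865). A dimmer second probe set of Parp14 was also lower in KO in both white depots but higher in KO brown fat (0.93, with the WT array under the floor). With the probe set that stood for each gene, the 2 brown arrays lay below the 4 white arrays without overlap. The dimmer probe set of Parp14 did overlap, with 121 in KO brown and 44.2 in KO epididymal fat.

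The interferon-inducible GTPases act on the vacuoles of intracellular pathogens. All 6 listed were lower in KO brown fat (53.6% of all genes), 5 of 6 in KO subcutaneous fat (45.3%) and 3 of 6 in KO epididymal fat (53.3%). All 6 were called lower in brown than in white fat, where 31.1% of all genes were. Ifi47 (IRG-47) had signals of 202 in KO and 289.5 in WT brown fat, 1456 in KO and 2038 in WT subcutaneous fat, and 529.6 in KO and 667 in WT epididymal fat. KO was lower each time, -0.45 ± 0.12 (SE, adjusted p = 0.522). The 3 depots did not overlap, with brown minus white at -2.07 ± 0.12 (SE, adjusted p = 0.000468) and subcutaneous above epididymal fat by 1.54 ± 0.14 (SE, adjusted p = 0.00903).

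Irgm1, a regulator of the other immunity-related GTPases, had signals of 509 in KO and 630.1 in WT brown fat, 924 in KO and 1058 in WT subcutaneous fat, and 496 in KO and 592 in WT epididymal fat. KO was lower in each depot, with log2 differences between -0.31 and -0.20 and -0.25 ± 0.11 (SE, adjusted p = 0.629) over depots. Subcutaneous fat was above epididymal fat by 0.87 ± 0.14 (SE, adjusted p = 0.0363) and brown minus white was -0.37 ± 0.12 (SE, adjusted p = 0.0498), although the brown and epididymal arrays overlapped. Gbp2, a guanylate-binding protein, had signals of 1128 in KO and 1175 in WT brown fat, 3040.1 in KO and 2846 in WT subcutaneous fat, and 3055 in KO and 2559 in WT epididymal fat. KO minus WT was -0.06 in brown, 0.10 in subcutaneous and 0.26 in epididymal fat on the log2 scale, and brown minus white was -1.32 ± 0.13 (SE, adjusted p = 0.0013). Its second probe set turned the subcutaneous direction, with KO minus WT at -0.39.

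Iigp1, an immunity-related GTPase, had signals of 888 in KO and 1174 in WT brown fat, 2838 in KO and 3682 in WT subcutaneous fat, and 1811 in KO and 1635 in WT epididymal fat. KO was lower in brown and subcutaneous fat and higher in epididymal fat, and a second probe set had the same directions. Its arrays fell into 3 levels by depot, with brown minus white at -1.21 ± 0.17 (SE, adjusted p = 0.00346). The other GTPases, Gbp3 and Igtp, had signals between 456 and 1784.

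Antigen processing was represented by Psmb8 and Psmb9, catalytic subunits of the immunoproteasome, and Tap1, a subunit of the peptide transporter of the endoplasmic reticulum. The 3 genes lie together in the major histocompatibility complex on chromosome 17. Psmb8 had signals of 670.2 in KO and 680.2 in WT brown fat, 3083 in KO and 3750.3 in WT subcutaneous fat, and 1402 in KO and 1283 in WT epididymal fat. Psmb9 had signals of 602 in KO and 588 in WT brown fat, 2349 in KO and 2599.5 in WT subcutaneous fat, and 923 in KO and 975 in WT epididymal fat. Tap1 had signals of 377 in KO and 468 in WT brown fat, 1349 in KO and 1525 in WT subcutaneous fat, and 599.5 in KO and 634 in WT epididymal fat.

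All 3 followed 1 pattern, with subcutaneous arrays highest, epididymal in the middle and brown lowest, with no overlap between depots. Subcutaneous exceeded epididymal fat by 1.34 ± 0.16 (SE, adjusted p = 0.018) for Psmb8, by 1.38 ± 0.14 (SE, adjusted p = 0.0112) for Psmb9 and by 1.22 ± 0.15 (SE, adjusted p = 0.017) for Tap1. Brown minus white was -1.66 ± 0.14 (SE, adjusted p = 0.000847) for Psmb8, -1.36 ± 0.12 (SE, adjusted p = 0.000962) for Psmb9 and -1.16 ± 0.13 (SE, adjusted p = 0.00161) for Tap1. With the mean of its 4 probe sets, 3 of which were under the floor on all arrays, the subcutaneous difference of Tap1 was 0.30 (adjusted p = 0.197) and not called. KO minus WT differences were small, between -0.31 and 0.13 on the log2 scale over the 3 genes and depots.

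Among the listed genes, those of both the type I and the interferon gamma type were mostly lower in KO brown and subcutaneous fat. The median of type I genes was -0.28 in brown (20 of 25 lower), -0.28 in subcutaneous (20 of 25 lower) and -0.10 in epididymal fat (14 of 24 lower). The median of interferon gamma type genes was -0.31 in brown (8 of 9 lower), -0.20 in subcutaneous (8 of 9 lower) and -0.08 in epididymal fat (5 of 9 lower). The shares of all genes lower in KO were 53.6%, 45.3% and 53.3% in these depots. The type I median minus the interferon gamma type median was 0.03 in brown, -0.09 in subcutaneous and -0.02 in epididymal fat, with no test of these differences. The spread was wider among type I genes, which ran from -1.27 to 0.74 in brown fat, against -0.54 to 0.03 for the other class, which also has fewer genes. The genes past 2-fold were all of type I.

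Interferons themselves were at or near the floor. Of 14 ligand genes listed, 8 had a usable probe set, and Ifng did not exceed 28.5 on any array. Ifna2, Ifna4, Ifna9 and Ifnab were also under the floor throughout, and Ifna5 exceeded it on the WT brown array alone (74.6, against 5.2 in KO brown fat). Ifnb1 had signals of 129 in KO and 109.5 in WT brown fat, 92.9 in KO and 54.8 in WT subcutaneous fat, and 58.3 in KO and 33.1 in WT epididymal fat, and Ifna1 had signals of 42.7 in KO and 105 in WT brown fat, 114 in KO and 37.5 in WT subcutaneous fat, and 73.7 in KO and 74.7 in WT epididymal fat. Brown fat was called above white fat for Ifnb1, 0.77 ± 0.16 (SE, adjusted p = 0.0126), with 3 of its 4 white arrays set to the floor. Values this weak do not order the genotypes.

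The receptor genes were expressed in all depots. Ifnar1 had signals of 594 in KO and 689 in WT brown fat, 610.2 in KO and 633 in WT subcutaneous fat, and 626 in KO and 697 in WT epididymal fat. Ifnar2 had signals of 4389.8 in KO and 4938 in WT brown fat, 3039.9 in KO and 2998 in WT subcutaneous fat, and 3201 in KO and 3001 in WT epididymal fat, with brown above white fat by 0.61 ± 0.13 (SE, adjusted p = 0.0138). In the other direction, Ifngr1 had signals of 2057 in KO and 2193 in WT brown fat, 4098 in KO and 3638 in WT subcutaneous fat, and 4386 in KO and 3912 in WT epididymal fat, with brown minus white at -0.91 ± 0.13 (SE, adjusted p = 0.00389).

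Ifngr2 had signals of 303 in KO and 369 in WT brown fat, 386 in KO and 272 in WT subcutaneous fat, and 239.7 in KO and 243 in WT epididymal fat, with no depot contrast called. Of the 8 tested genes for receptors and their kinases, 4 were called lower (31.1% of all genes) and 1 higher (21.6%) in brown than in white fat. Between the white depots and between genotypes 0 were called in either direction. Taken over the depots by limma, the genotype differences of these 8 lay between -0.14 and 0.19 on the log2 scale. Within single depots the differences ran wider, from -0.29 in brown to 0.51 in subcutaneous fat, and were not tested.

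The interferon signalling factors were mostly lower in KO brown and subcutaneous fat as well. Of 9 measured in brown fat, 9 were lower in KO (53.6% of all genes). Of 8 in subcutaneous fat 7 were (45.3%), and of 8 in epididymal fat 5 were (53.3%). Of 8 tested, 7 were called lower in brown than in white fat (31.1% of all genes). Between the white depots 6 were called higher in subcutaneous fat (3.88% of all genes), and 0 were called for genotype. Irf7, itself an interferon-stimulated gene that drives type I interferon transcription, had signals of 216 in KO and 289 in WT brown fat, 586 in KO and 709 in WT subcutaneous fat, and 217 in KO and 407 in WT epididymal fat, lower in KO each time with the widest gap, -0.91, in epididymal fat. Its genotype difference of -0.53 ± 0.16 (SE, adjusted p = 0.554) did not pass.

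Irf9, the DNA-binding subunit of the type I complex, had signals of 337 in KO and 364 in WT brown fat, 1020 in KO and 965 in WT subcutaneous fat, and 514 in KO and 528 in WT epididymal fat. KO minus WT lay between -0.11 and 0.08 on the log2 scale. Irf1, a transcription factor induced by interferon gamma, had signals of 994 in KO and 1054 in WT brown fat, 2429 in KO and 2568 in WT subcutaneous fat, and 1288 in KO and 1466 in WT epididymal fat. Both factors were highest in subcutaneous fat, by 0.93 ± 0.14 (SE, adjusted p = 0.0328) for Irf9 and 0.86 ± 0.14 (SE, adjusted p = 0.0368) for Irf1 over epididymal fat.

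Among genes that sense nucleic acids, 5 of 10 were lower in KO brown fat, near the share of all genes (53.6%). In KO subcutaneous fat 9 of 12 were lower (45.3% of all genes), and in KO epididymal fat 8 of 11 (53.3%). Zbp1, a sensor of Z-form nucleic acids, had signals of 70.8 in KO and 85.1 in WT brown fat, 432 in KO and 522 in WT subcutaneous fat, and 83.9 in KO and 174 in WT epididymal fat, which was 2.08-fold lower in KO epididymal fat. Tlr9, a receptor of CpG DNA, had signals of 46.5 in KO and 129.8 in WT brown fat, 92.0 in KO and 82.4 in WT subcutaneous fat, and 23.8 in KO and 70.4 in WT epididymal fat. It was at least 2.05-fold lower in KO brown fat, where the KO array was under the floor, and its arrays were weak throughout.

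Interferon-induced genes outside the 37 were counted the same way. Of other type I genes, 14 of 24 were lower in KO brown fat, 22 of 25 in KO subcutaneous fat and 18 of 24 in KO epididymal fat, with medians of -0.06, -0.13 and -0.17. Of other interferon gamma type genes, 12 of 14 were lower in KO brown fat, 9 of 15 in KO subcutaneous fat and 10 of 15 in KO epididymal fat, with medians of -0.16, -0.15 and -0.15. Beside these, 53.6%, 45.3% and 53.3% of all genes were lower, with medians of -0.03, 0.04 and -0.02. In brown fat the share of other type I genes, 58.3%, was near that of all genes. Limma called 0 of 24 and 0 of 15 for genotype, and 0 differed 2-fold or more in any depot. By depot, 22 of 24 and 8 of 15 were called lower in brown than in white fat, with 0 and 1 called higher, and 9 of 24 and 1 of 15 were called higher in subcutaneous than in epididymal fat. Of all genes, 31.1% were called lower and 21.6% higher in brown fat, and 3.88% higher in subcutaneous fat.

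Macrophage markers leaned the same way as the interferon-stimulated genes in 2 of 3 depots. They were lower in KO for 9 of 9 measured markers in brown fat (median -0.56), for 10 of 10 in subcutaneous fat (median -0.50) and for 1 of 10 in epididymal fat (median 0.19). Their medians in brown and subcutaneous fat were thus further from 0 than those of the interferon-stimulated genes. T cell markers were lower in KO for 1 of 3 measured in brown fat, 9 of 9 in subcutaneous fat and 4 of 5 in epididymal fat, with medians of 0.06, -0.37 and -0.10. B cell markers were lower for 5 of 7, 5 of 7 and 3 of 6, with medians of -0.19, -0.10 and -0.13. Neutrophil markers were lower in KO for 3 of 4 in brown fat (median -0.50), for 0 of 6 in subcutaneous fat (median 1.05) and for 1 of 4 in epididymal fat (median 0.22). Markers of the seminal vesicle, a neighbouring organ of epididymal fat, summed to 2552 in KO and 1925 in WT brown fat, 1671 in KO and 8359 in WT subcutaneous fat, and 3114 in KO and 4471 in WT epididymal fat. They were lower in KO for 0 of 4, 4 of 4 and 4 of 4, with medians of 0.48, -2.37 and -0.64. Over all genes, 53.6% were lower in KO brown fat, 45.3% in KO subcutaneous fat and 53.3% in KO epididymal fat. The part of the cells and tissues with these markers in the KO minus WT differences was not tested.

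**Figure D4:**
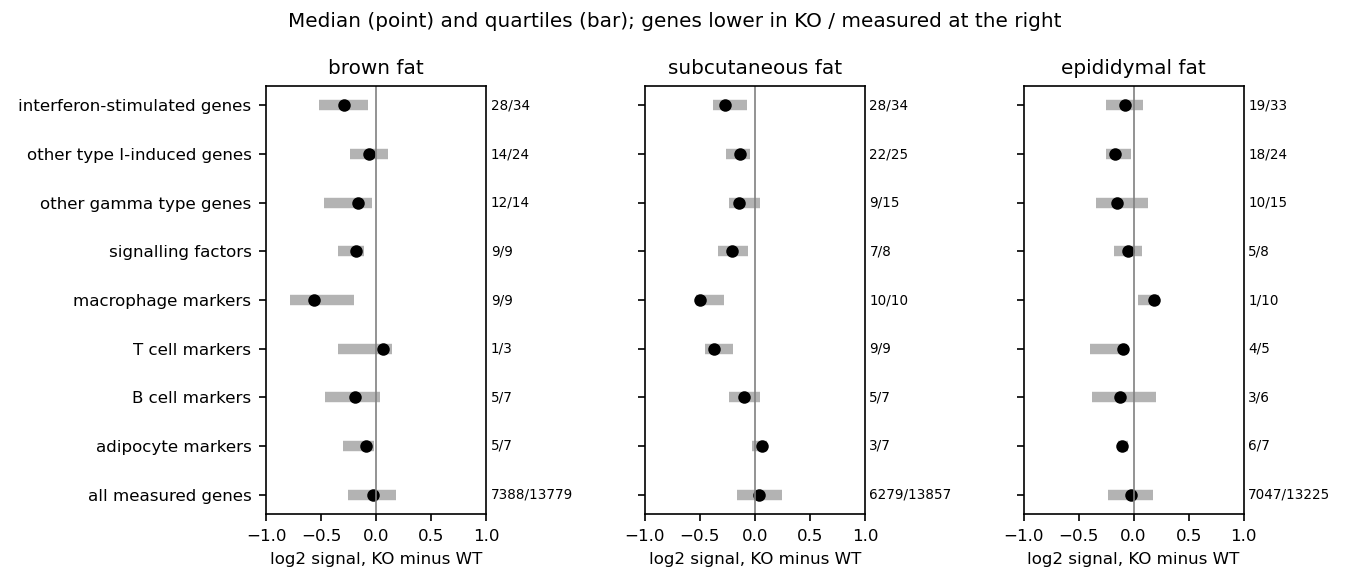
Points are median KO minus WT log2 differences of each gene list in brown, subcutaneous and epididymal fat, bars run between the quartiles, and the figures at the right give the genes lower in KO out of those measured. Macrophage markers lie at -0.56, -0.50 and 0.19 in the 3 panels, and interferon-stimulated genes at -0.29, -0.27 and -0.08.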

How the data were processed

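Total RNA of 6 fat samples was measured on Affymetrix arrays. Per the submitters' processing notes, the authors made the deposited intensity values with MAS5 in Affymetrix Expression Console. Tool versions are not given in the sources at hand. The intensity values are linear, with 1 value for each probe set on each array, and all arrays share 1 trimmed mean. A change of total RNA per cell is hidden by that scaling, and weak values carry most noise. Present and absent calls were not analysed here. The number of arrays limits the precision, since no depot has a second array of a genotype to test against.

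Of the probe sets, 34958 carried a single gene symbol, and 34754 of these were found in a RefSeq gene table (GRCm38.p6), where 0 symbols changed. Among a gene's probe sets the one with the highest average log2 signal stood for it, which gave 18194 genes. Values below the 40th percentile (63.2) were raised to that floor before taking log2. Genes with both arrays of a depot at the floor were left out there. Folds involving an array that does not exceed the floor are bounds and are written "at least". The SD between probe sets was pooled over genes with several probe sets exceeding the floor.

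Tests used limma 3.58.1 (R 4.3.3) on 13233 genes exceeding the floor on 3 or more arrays, with Benjamini-Hochberg adjustment at 0.05. In the genotype contrast the depots take the place of replicates. The fit was tested on simulated data with planted differences larger than any genotype difference of the listed genes. That test does not show how often differences of their size would be called. Promoter letters came from a RefSeq table of start sites. Tables and plots were made in Python (3.11.15) with scipy 1.17.1, pandas 2.3.3, matplotlib 3.10.9 and numpy 2.4.6.

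The genes, their classes and the pathway and cell marker lists were chosen with earlier results of these data known. Signals on every array are given for genes past 2-fold in a depot with the brighter array at 2 or more times the floor, for up to 8 genes with the largest difference per contrast and direction among those called, for the 5 with the highest mean log2 signal, and for Stat2 and Irgm1. From the pathway lists, genes past 2-fold, Irf9, Irf7, Irf1 and the receptor subunits are given, with Kdm4b as a check of the labels. Ifit1, Rsad2, Dhx58, Oas2, Xaf1 and the weak Ifnb1 and Ifna1 were added after their values were seen. Alternatives covered the scaling (quantile, median), the floor (20th or 60th percentile, or none), the probe set rule (average, or no cross-hybridising ones), the fold (1.5 or 3), means for medians, the limma fit (no filter, no depot term, intensity trend) and the removal of single arrays or depots.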

Additional observations from a re-analysis of the deposited data

Results flagged for a closer look

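Ifi204 stood out because its KO array was lower than WT in 2 depots and higher in the other. The KO minus WT log2 difference was -1.59 in subcutaneous fat and -1.02 in brown fat, against 0.33 in epididymal fat. The brown value is a bound, since the KO brown array was under the floor. It fell short of 2-fold under median centring (-0.97) and was 0 with the floor at the 60th percentile. The difference between depots was not tested, because 1 array per depot and genotype leaves no residual degree of freedom for it.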

How the results depend on the processing

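The limma test called 0 interferon-stimulated genes for genotype under each of the 13 alternatives, the fit without the depot term and those without 1 depot included. The count called lower in brown than in white fat stayed between 21 and 27 of the main 26. The count called higher in subcutaneous than in epididymal fat did not hold: it was 9 in the main setting, 0 with the floor at the 20th percentile, 16 with it at the 60th, 1 with no filter, 2 with no floor and 15 with an intensity trend. Leaving out 1 array at a time gave between 0 and 7. Genes past the fold threshold became 3 lower in epididymal fat, and 2 higher and 5 lower in brown fat, at 1.5-fold. At 3-fold they became 1 lower in subcutaneous and 0 lower in brown fat. In brown fat 1 was lower under median centring and 1 with the floor at the 60th percentile. With the floor at the 20th percentile 1 gene was higher in brown and 1 in epididymal fat. Median centring turned the epididymal medians to 0.054 for all 33 genes, 0.030 for type I and 0.055 for interferon gamma type genes. The type I minus interferon gamma type median turned to -0.0075 in brown fat with means, and to 0.026 in epididymal fat under quantile normalization and 0.015 with the floor at the 60th percentile. The cause of these shifts was not tested. The depot term of the main fit pairs the KO and WT arrays of a depot, and without it 0 genes were called for genotype too. The labels carry no replicate numbers for another pairing. Weak signals limit Mx1, Mx2, Oas3, Stat2, Ifi204 and the interferons, which lie near the floor of 63.2 on some arrays.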
